A study of Mus musculus with 2 samples.

Results

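The collagen genes were taken as every feature whose symbol reads Col, a number, a and a number, present in both count matrices. They were 44 of the 33696 features, and all 44 gene identifiers matched the GENCODE annotation of the mouse genome build GRCm38 (mm10). The data were droplet single-cell RNA libraries of mouse aorta, 1 from wild-type mice and 1 from mice whose sample title reads Kif13b-/-. Its genotype label reads Kif13b knock down, so how the gene was altered is not settled by the labels. Strain, age, sex, diet and the number of aortas per library are not given by the labels used here.

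Collagens are triple-helical proteins built from 3 polypeptide chains and are the main load-bearing component of the arterial wall. Types I, III and V form the interstitial fibrils of media and adventitia, type IV forms the sheet of basement membranes around smooth muscle and under endothelium, and type VI forms beaded filaments near cells. Types II, IX, X and XI belong to cartilage, type X to its mineralising zone, and are also found where arterial cells take on a cartilage-like state. By structure the 44 genes fell into 11 fibrillar, 6 basement membrane, 6 beaded filament, 9 fibril-associated, 3 short-chain network, 1 anchoring fibril, 4 transmembrane and 2 multiplexin collagens, with 2 others.

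After filtering, the wild-type library kept 16686 barcodes with a median of 2385 UMIs (unique molecular identifiers, counts of captured RNA molecules). The Kif13b-/- library kept 6887 barcodes with a median of 5760 UMIs, so it held fewer and deeper barcodes. The labels state that about 6000 cells were loaded and about 3000 targeted per channel, against 21126 and 7766 barcodes deposited. The libraries shared 38 of the analysed barcodes. Kif13b was at 70.5 CPM (counts scaled to a total of 1000000) over the wild-type library and 43.8 CPM over the Kif13b-/- library, and a 3′ count need not fall in the altered part of the gene. Both libraries held smooth muscle-like cells, the main cell of the aortic media, in which none of the 8 smooth muscle markers was at 0.

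Barcodes were clustered without the collagen genes, and clusters were named from fixed markers that include no collagen. The 6 classes compared were smooth muscle-like (1883 wild-type and 761 Kif13b-/- barcodes), modulated stromal-like (1099 and 564), chondrocyte-like (2240 and 253), fibroblast-like (1614 and 666), endothelial-like (2334 and 569) and Schwann or glial-like (277 and 70). With 1 library per genotype there was no replicate of either, so no test between genotypes was possible and no p-value is given. A difference between the libraries may be a difference between mice or preparations. Intervals are exact 95% intervals that cover counting error only. A gene was taken as measured in a class with 50 or more UMIs over both libraries, and was called higher or lower where the ratio of Kif13b-/- to wild-type CPM was 1.5 or more, or the inverse.

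For some collagens with a RefSeq promoter entry, the 100 bases upstream of the RefSeq start are shown here. These collagens were chosen because several cartilage collagens had lower CPM in the Kif13b-/- chondrocyte-like cells while Col1a2 and Col3a1 were not called there. RefSeq promoter entries of build GRCm38.p6 matched 35 of the 44 genes, with 38 starts. Col2a1, Col1a1 and Col9a3 were among the genes without an entry, so no window is shown for them. Capitals mark TATAA, the core of the TATA box, or CCAAT, the letters bound by NF-Y, which read ATTGG where they lie on the other strand.
Col10a1, type X of mineralising cartilage, chr10:34389881-34389980, plus strand: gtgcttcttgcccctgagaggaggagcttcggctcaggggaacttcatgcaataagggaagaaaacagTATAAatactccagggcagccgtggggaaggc
Col11a1, type XI fibril chain of cartilage, chr3:114030440-114030539, plus strand: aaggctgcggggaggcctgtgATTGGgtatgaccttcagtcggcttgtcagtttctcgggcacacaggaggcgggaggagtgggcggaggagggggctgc
Col9a1, the longer start, chr1:24177510-24177609, plus strand: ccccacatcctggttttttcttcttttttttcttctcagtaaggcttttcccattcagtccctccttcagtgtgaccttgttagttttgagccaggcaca
Col9a1, the inner start, chr1:24195103-24195202, plus strand: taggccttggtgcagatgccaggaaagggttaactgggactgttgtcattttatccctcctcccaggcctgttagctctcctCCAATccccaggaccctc
Col9a2, partner chain of Col9a1, chr4:121039466-121039565, plus strand: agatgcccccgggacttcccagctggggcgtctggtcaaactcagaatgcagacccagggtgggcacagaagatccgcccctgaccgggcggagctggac
Col1a2, interstitial fibril chain, chr6:4505518-4505617, plus strand: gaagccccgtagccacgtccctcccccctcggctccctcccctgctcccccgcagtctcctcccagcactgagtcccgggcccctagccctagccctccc
Col3a1, interstitial fibril chain, chr1:45311438-45311537, plus strand: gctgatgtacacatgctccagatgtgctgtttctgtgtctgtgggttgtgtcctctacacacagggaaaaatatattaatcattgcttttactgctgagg

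The motifs were searched as exact letters on both strands, each on its own, with overlap allowed. TATAA was in 2 of the 38 collagen windows and in 10.2% of all 32851 promoter windows of that length. CCAAT was in 4 of the 38 against 18.9% of all. AACAAT, the core of the motif read by SOX factors, was in 0 of the 38 against 3.36% of all, which says only that these letters are not in these windows. Among the cartilage collagens shown, TATAA was found upstream of Col10a1 only, and Col11a1 and the inner Col9a1 start held CCAAT.

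Of the 6 classes compared, chondrocyte-like, fibroblast-like and modulated stromal-like cells carried the highest share of collagen RNA. Of all UMIs in chondrocyte-like cells, the 44 genes gave 2.69% for wild-type and 2.75% for Kif13b-/- cells. In fibroblast-like cells the share was 1.89% for wild-type and 2.79% for Kif13b-/- cells. The modulated stromal-like cells, a class marked by Crabp2, Cst6 and Grem1, gave 1.71% and 1.77%.

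The Kif13b-/- library was thus the higher one in fibroblast-like cells and close to the wild-type one in the other matrix-rich classes. Schwann or glial-like cells went the other way, from 1.33% in the wild-type to 0.96% in the Kif13b-/- library. Endothelial-like cells gave 0.72% and 0.87%, and smooth muscle-like cells gave 0.71% and 0.70%.

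**Figure D1:**
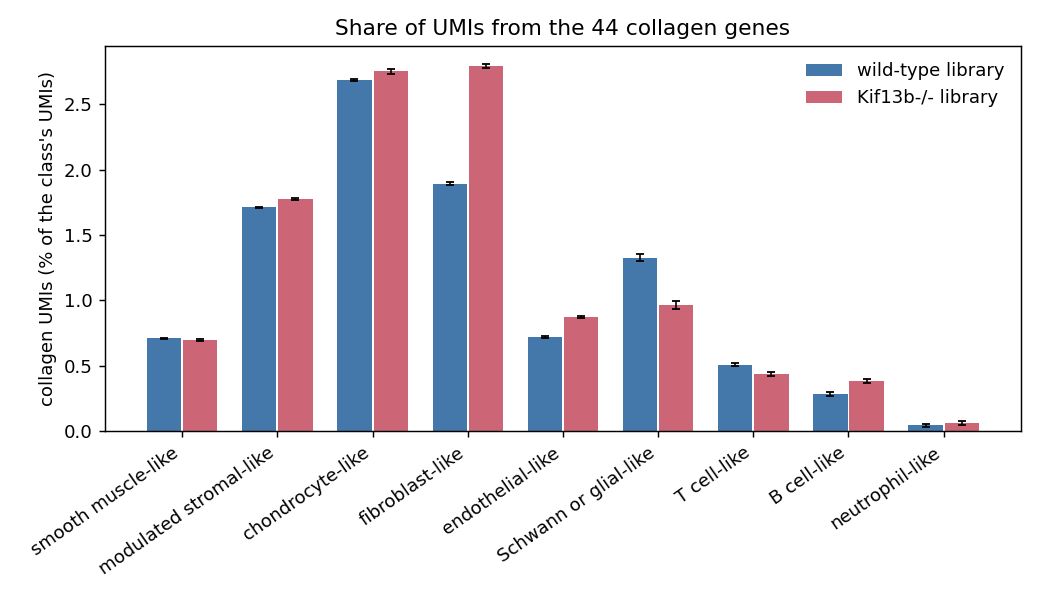
Share of each class's UMIs (percent, vertical axis) that came from the 44 collagen genes, in the wild-type (blue) and Kif13b-/- (red) library, with exact binomial intervals as black bars. Of the 6 classes compared, fibroblast-like cells differ most, at 1.89% and 2.79%, and T cell-like and B cell-like cells, which should lack collagen RNA, stand between 0.28% and 0.51%.

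T cells and B cells do not make fibrillar collagen, so their level serves here as a reference for collagen RNA from other cells. The smooth muscle markers summed to 3952 and 2860 CPM in T and B cell-like barcodes, and the fibroblast markers to 1738 and 1854 CPM. Whether this RNA came from free RNA in the droplets or from mixed barcodes was not tested. T cell-like barcodes gave 0.51% collagen UMIs for wild-type and 0.44% for Kif13b-/- cells, and B cell-like barcodes 0.28% and 0.38%. Neutrophil-like barcodes, with median depths of 2073.5 and 2679 UMIs, gave 0.04% and 0.06%, so the background was not the same in all leukocytes. Col1a1 in T and B cell-like barcodes together stood at 749 and 683 CPM, with median depths of 2172.5 and 5171 UMIs.

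Smooth muscle-like Col1a1, at 600 CPM for wild-type and 668 CPM for Kif13b-/- cells, was therefore no higher in CPM than in T and B cell-like barcodes. Per barcode it was 4.09 and 7.81 UMIs in smooth muscle-like cells, against 2.18 and 4.57 UMIs in T and B cell-like cells. Here a level at or under that of the T and B cell-like barcodes of the same library is called background.

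Of the 44 genes, 42 had 50 or more UMIs over both libraries, and Col6a4 and Col26a1 had fewer, with 40 and 10. Col22a1, Col7a1 and Col17a1 had 103, 100 and 83 UMIs in all but reached 50 in none of the 6 classes. The other 39 were measured in at least 1 class, and 20 in all 6. With pericyte-like and adipocyte-like cells ranked beside the 6 classes, the class with the highest level was the same in both libraries for 29 of the 42. Of the 39 measured genes, 29 were called in at least 1 class and 8 were called in opposite directions in different classes. Of all 13830 genes measured in at least 1 of the 6 classes, 33.1% were called in at least 1 and 2.88% in opposite directions.

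**Figure D2:**
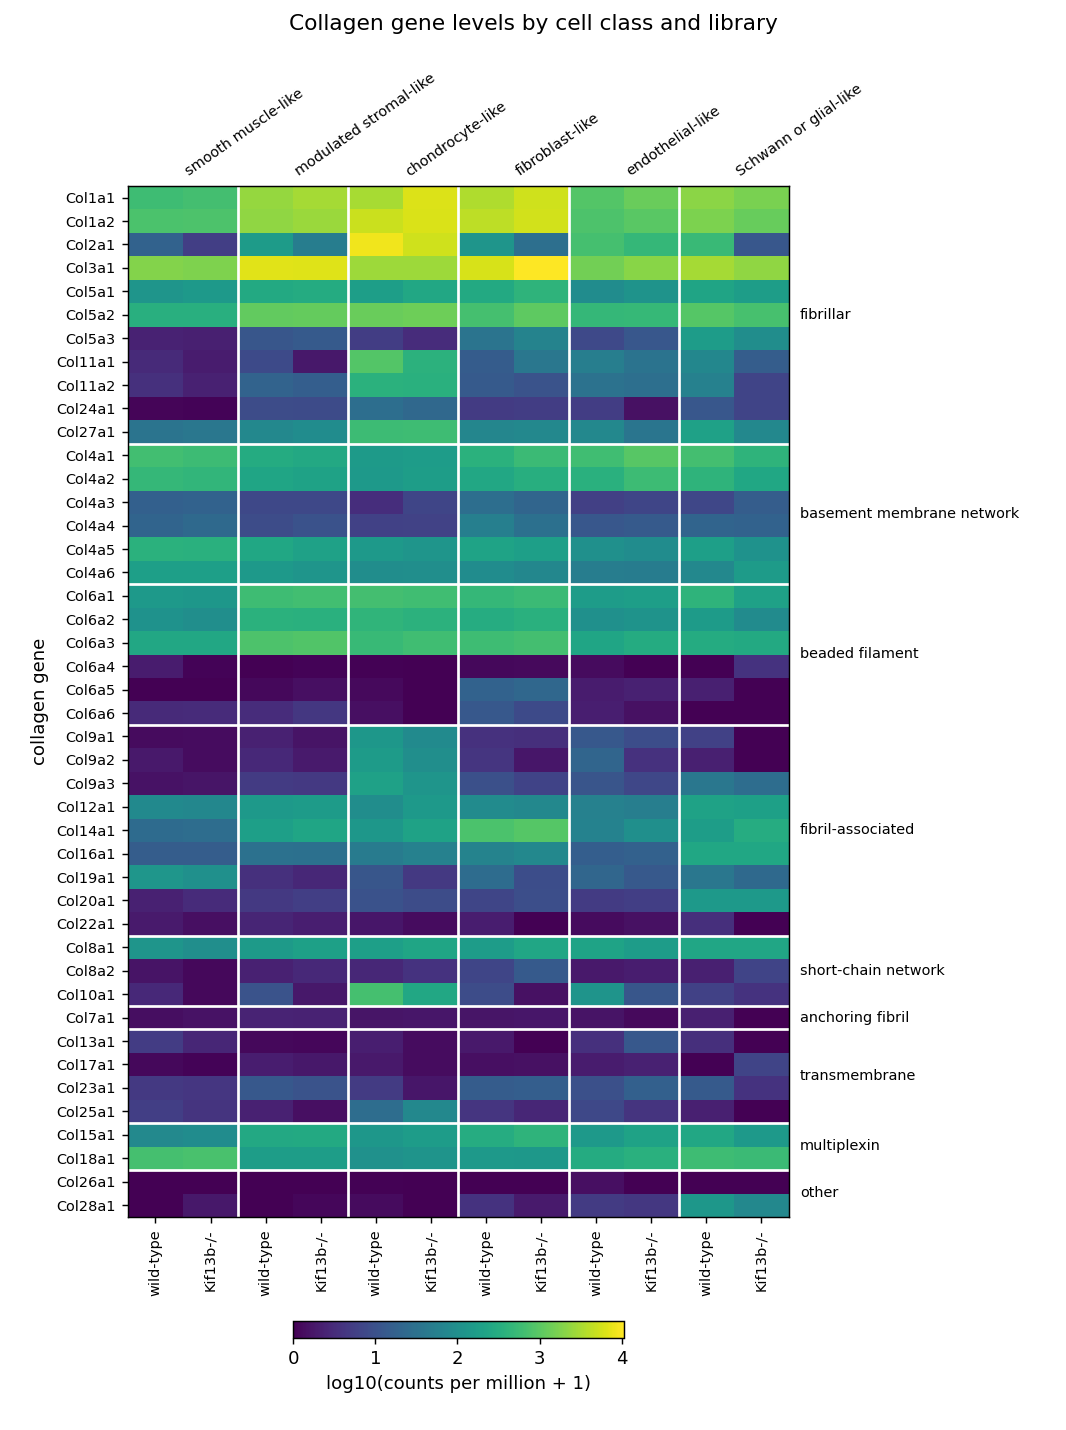
Level of each of the 44 collagen genes (rows, grouped by structure) in the 6 cell classes, with the wild-type and Kif13b-/- library side by side, as log10 of CPM plus 1. Col2a1, Col9a1, Col9a2, Col9a3, Col10a1 and Col11a1 are highest in chondrocyte-like cells, Col14a1 in fibroblast-like cells, Col19a1 in smooth muscle-like cells, and Col16a1, Col20a1 and Col28a1 in Schwann or glial-like cells, in both libraries.

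In chondrocyte-like cells Col2a1, Col10a1, Col11a1 and the type IX chains had lower CPM in the Kif13b-/- library, and the type I chain Col1a1 higher. The cartilage chain Col11a2 was not called, and the total collagen share was nearly equal. With barcodes thinned to 1000 UMIs, which leaves fewer measured genes, 1 collagen in place of 9 was called lower. Of 34 measured collagens, 9 were lower, where 7.8% of all 11607 genes measured in these cells were lower. Another 5 were higher, against 5.81% of all genes. The median log2 ratio of the 34 was 0.05, and that of all genes was -0.02. These cells made up 13.4% of the analysed wild-type barcodes and 3.67% of the Kif13b-/- ones, and gave 18.8% and 4.54% of all UMIs.

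Col2a1 (chromosome 15, 97975602 to 98004695, minus strand) encodes the single chain of type II collagen, the main fibril of cartilage. It was at 8571 CPM in wild-type and 5429.8 CPM in Kif13b-/- chondrocyte-like cells, a log2 ratio of -0.66 (-0.68 to -0.63). Both levels were far over background, 82.5 and 93.5 times that of T and B cell-like barcodes. Col11a1 (chromosome 3, 114030540 to 114220718, plus strand), whose chain nucleates cartilage fibrils, was at 881 and 378 CPM, a log2 ratio of -1.22 (-1.32 to -1.13).

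Its partner chain in type XI, Col11a2, was at 372 and 360 CPM and was not called. Thus the chains that share one collagen did not differ alike. The type IX chains, which sit on the surface of type II fibrils, differed by similar amounts. Col9a1 was at 136 and 83.6 CPM, Col9a2 at 159 and 96.9 CPM, and Col9a3 at 197 and 123 CPM, with log2 ratios of -0.70, -0.71 and -0.67. The ratio of Col9a1 to Col9a2 UMIs was 0.86 in both libraries.

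Col10a1 (chromosome 10, 34389981 to 34397085, plus strand) encodes type X collagen, the marker of hypertrophic cartilage. It was at 686 CPM in wild-type and 262 CPM in Kif13b-/- chondrocyte-like cells, a log2 ratio of -1.39 (-1.50 to -1.28). The Kif13b-/- value rested on few barcodes: 23 of 253 had a UMI, and 5 of them held 96.6% of its 710 UMIs. In the wild-type library 547 of 2240 barcodes had a UMI, and the top 5 held 24.5%.

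With each barcode thinned to 1000 UMIs, Col10a1 was found in 15.5% of wild-type and 3.75% of Kif13b-/- chondrocyte-like barcodes, leaving out 185 and 13 shallower ones. Unthinned, the shares were 24.4% and 9.09%. Thinned T and B cell-like barcodes gave 0.66% in the wild-type library and 0 of 245 in the Kif13b-/- one, which allows up to 1.22%. In both measures, Col10a1 was in a smaller share of Kif13b-/- barcodes.

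Col1a1 (chromosome 11, 94936224 to 94953042, plus strand), the chain present as 2 copies in a type I collagen molecule, was at 3164 CPM in wild-type and 6380.2 CPM in Kif13b-/- chondrocyte-like cells. The log2 ratio was 1.01 (0.99 to 1.04). Its partner Col1a2 was at 5071 and 6299 CPM, which was not called. The ratio of Col1a1 to Col1a2 UMIs was 0.62 (0.62 to 0.63) in the wild-type and 1.01 (0.99 to 1.03) in the Kif13b-/- library.

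No other class moved that chain ratio so far: it went from 0.79 to 0.86 in smooth muscle-like, 1.05 to 1.16 in modulated stromal-like, 0.84 to 0.98 in fibroblast-like and 1.13 to 1.29 in endothelial-like cells. In Schwann or glial-like cells it was 1.25 and 1.30, with overlapping intervals. A chain ratio within a library also depends on how well each 3′ end is captured, so only its difference between libraries and classes is read here.

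The remaining abundant fibrillar collagens of chondrocyte-like cells were close in both libraries. Col3a1 was at 2678 and 2686 CPM, and Col5a2 at 1263 and 1356 CPM. Higher in the Kif13b-/- library were also Col12a1 (92.1 and 145 CPM) and Col14a1 (134 and 208 CPM), which bind the surface of interstitial fibrils, Col4a3 (2.40 and 5.89 CPM) and the transmembrane Col25a1 (26.6 and 73.3 CPM). Of the 199 Kif13b-/- UMIs of Col25a1, 90.5% came from 5 barcodes.

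Lower in the Kif13b-/- library were also Col19a1 (10.8 and 3.68 CPM), Col23a1 (4.02 and 0.74 CPM, from 62 and 2 UMIs) and Col5a3 (4.47 and 2.21 CPM). Col19a1 was under background in both libraries, and the interval of Col5a3 included no difference. Col4a3 was at 1.07 and 1.03 times background.

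The class held 3 clusters, numbered 13, 17 and 19, in like proportions, and cluster 19, the deepest, gave 73.4% of its wild-type and 76.9% of its Kif13b-/- UMIs. Col1a1 was higher in the Kif13b-/- library in all 3 clusters, with log2 ratios of 0.92, 1.41 and 1.00. Col10a1 and Col11a1 were lower in all 3, at -4.61, -2.56 and -1.20 for Col10a1 and -0.58, -2.49 and -1.28 for Col11a1. Col2a1 was not: it was at 3303 and 3458 CPM in cluster 13, 5416 and 4647 CPM in cluster 17, and 10199 and 5910.3 CPM in cluster 19. The lower class value of Col2a1 thus lay mainly in the deep cluster. Of Col9a1, cluster 17 held 1 UMI in the Kif13b-/- library.

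**Figure D3:**
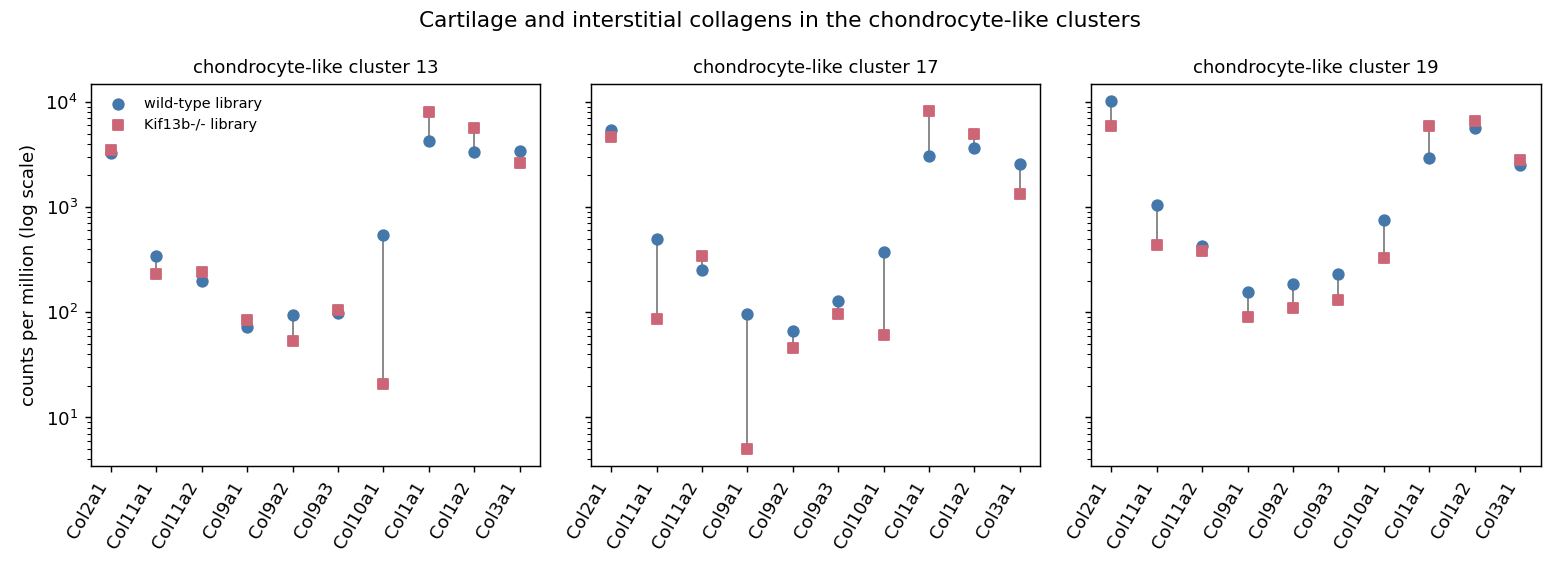
Levels of 10 collagens in CPM (log axis) in the 3 chondrocyte-like clusters, with blue circles for the wild-type and red squares for the Kif13b-/- library. Col10a1 lies lower and Col1a1 higher in the Kif13b-/- library in all 3 clusters, while Col2a1 differs mainly in cluster 19.

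Several of these calls did not hold when barcodes were thinned to 1000 UMIs, which evens both their depth and their weight and drops shallow ones. The log2 ratios of Col9a1, Col9a2 and Col9a3 were then -0.16, 0.01 and 0.15, those of Col12a1 and Col14a1 were -0.39 and -0.12, and those of Col25a1 and Col2a1 were 0.05 and -0.42. Col10a1 (-2.29), Col11a1 (-0.57) and Col1a1 (0.59) kept their direction there, Col11a1 just under the fold used for a call. The summed chondrocyte markers, without collagens, were at 8717 and 7080.2 CPM, and their part in the lower cartilage collagens was not tested.

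In fibroblast-like cells several interstitial fibrillar collagens had higher CPM in the Kif13b-/- library, by a margin that depended on how barcodes and clusters were weighted. Of 32 measured collagens, 7 were higher, where 4.87% of all 10282 measured genes were higher, and 5 were lower, against 5.73%. The median log2 ratio was 0.23 for the collagens and -0.04 for all genes. Of the 10 measured fibrillar genes 5 were higher and 1 lower, and their summed level was 14900 CPM for wild-type and 23167 CPM for Kif13b-/- cells.

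Col3a1 (chromosome 1, 45311538 to 45349706, plus strand), the chain of the fine fibrils of adventitia, was at 5904 CPM for wild-type and 10513 CPM for Kif13b-/- cells. The log2 ratio was 0.83 (0.81 to 0.85). Col1a1 was at 3542 and 5429.8 CPM (log2 ratio 0.62), and Col1a2 at 4224 and 5549 CPM, which was not called. Of the type V chains, which help set fibril width, Col5a2 (696 and 1048 CPM) and Col5a3 (34.2 and 61.6 CPM) were also higher. Col5a1, at 278 and 410 CPM, was not called. Col5a2 (chromosome 1, 45374321 to 45503282, minus strand) is the neighbour of Col3a1.

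Of the basement membrane chains, Col4a1 was higher, at 364 and 560.02 CPM, and Col4a4 lower, at 53.7 and 29.3 CPM. Col8a2, a short-chain network collagen, was at 6.04 and 12.6 CPM. Col14a1 (chromosome 15, 55307750 to 55520803, plus strand), whose level was highest in this class in both libraries, was at 769 and 909 CPM and was not called. Col6a3, the long chain of type VI, was at 593 and 671 CPM.

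Cartilage collagens were low in fibroblast-like cells. Col2a1 was at 123 CPM for wild-type and 28.6 CPM for Kif13b-/- cells, 1.19 and 0.49 times background. Col9a3 was at 8.50 and 5.43 CPM, with an interval that included no difference. Col11a1 went against its direction elsewhere, at 13.6 and 38.7 CPM, and 56.7% of its 157 Kif13b-/- UMIs came from 5 barcodes. Col19a1 was at 25.1 and 7.89 CPM and Col6a6 at 11.6 and 6.90 CPM, both lower.

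The fibroblast-like class did not hold the same mix of clusters in both libraries. Cluster 11 gave 68.2% of its wild-type and 36.3% of its Kif13b-/- UMIs, and cluster 21, the deeper one, 27.1% and 50.3%. Cluster 21 also carried more Col3a1, at 11474 and 16076 CPM, against 3790.2 and 3961 CPM in cluster 11 and 4480 and 7335 CPM in the small cluster 8. Col1a1 was at 2660.2 and 2895 CPM in cluster 11, 5938 and 7118 CPM in cluster 21, and 2524 and 5942 CPM in cluster 8.

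In each cluster both genes were higher in the Kif13b-/- library, but by less than the class value in clusters 11 and 21. With the clusters weighted as in the wild-type library, the log2 ratio was 0.33 for Col3a1 and 0.24 for Col1a1, and 2 collagens in place of 7 were called higher. With barcodes thinned to 1000 UMIs none of the 7 was called and Col3a1 and Col1a1 were at 0.51 and 0.42. With every barcode weighing the same 1 collagen was called, and both genes were at 0.51 and 0.46. The cluster mix and the genotype cannot be told apart in the class value. In the class the 8 fibroblast markers summed to 5747 CPM for wild-type and 7394 CPM for Kif13b-/- cells. The 8 smooth muscle markers summed to 4473 and 2600 CPM. The fibroblast list was not particular to this class, as it summed to 9369 and 9589 CPM in modulated stromal-like cells. The part of these markers in the higher collagens was not tested.

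In endothelial-like cells the paired basement membrane chains had higher CPM in the Kif13b-/- library, and Col10a1, Col9a2, Col9a3 and Col11a1 of cartilage had lower CPM. Of 33 measured collagens 6 were higher, where 4.62% of all 11182 measured genes were higher, and 7 lower, against 5.05%. The median log2 ratio was 0.14, against -0.01 for all genes.

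Col4a1 (chromosome 8, 11198423 to 11312826, minus strand) and Col4a2 (11312805 to 11449287, plus strand) form the common type IV molecule in a 2 to 1 ratio, and their annotated starts face apart and overlap by 22 bases. Col4a1 was at 606 CPM in wild-type and 965 CPM in Kif13b-/- endothelial-like cells, a log2 ratio of 0.67 (0.61 to 0.74). Col4a2 was at 359 and 579 CPM, a log2 ratio of 0.69 (0.61 to 0.78). The ratio of Col4a1 to Col4a2 UMIs was 1.69 and 1.67, so both chains differed alike.

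Both genes were higher in cluster 27, at 1023 and 1635 CPM for Col4a1, and in cluster 28, at 465 and 883 CPM. In cluster 2 Col4a1 was at 380 and 486 CPM, and in cluster 22 at 515 and 454 CPM. Cluster 27 gave 28.3% of the wild-type and 39.4% of the Kif13b-/- UMIs of the class, cluster 22 gave 17.1% and 8.77%, and cluster 28 gave 24.1% and 13.6%. Cluster 37 held 39 Kif13b-/- barcodes and no wild-type one. The class ratios shrank to 0.12 for Col4a1 and 0.22 for Col4a2 with barcodes thinned to 1000 UMIs, and to 0.19 and 0.18 with every barcode weighing the same. Thinned, Col4a1 was found in 36.4% of wild-type and 36.1% of Kif13b-/- endothelial-like barcodes, against 14.7% and 9.39% of T and B cell-like ones. The unthinned shares were 53.7% and 69.4%, and 25.5% and 30.4%.

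Other endothelial-like collagens with basement membrane roles were not called. Col15a1, which links basement membrane to fibrils, was at 146 and 205 CPM, and Col18a1, the source of endostatin, at 299 and 350.3 CPM. Col13a1, a transmembrane collagen of cell contacts, was at 2.57 and 11.9 CPM, and 81.8% of its 44 Kif13b-/- UMIs came from 5 barcodes. Col23a1 (8.48 and 16.2 CPM), Col5a3 (6.82 and 11.4 CPM) and Col14a1 (59.7 and 99.9 CPM) were also higher. In the same cells the 8 fibroblast markers summed to 1562 and 2361 CPM and the 6 modulated stromal markers to 1512 and 2281 CPM, none at 0 in either library. Grem1 among them was at 3.63 and 53.6 CPM. The 8 endothelial markers summed to 3727 and 3735 CPM, and the 8 smooth muscle markers to more, 5257 and 4382 CPM. The part of these markers in the higher collagens was not tested.

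The interstitial chains were near background in these cells. Col1a1 was at 880.3 and 1255 CPM, 1.18 and 1.84 times background, Col3a1 at 1458 and 2043 CPM, 1.00 and 1.62 times, and Col1a2 at 782 and 973 CPM, 1.34 and 1.56 times. Col5a2 was at 475 and 487 CPM. None of these was called.

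Col10a1 was at 120.4 CPM in wild-type and 10.8 CPM in Kif13b-/- endothelial-like cells, a log2 ratio of -3.46 (-3.97 to -3.02). Col9a2 was at 19.5 and 2.71 CPM, Col9a3 at 10.5 and 6.23 CPM, Col11a1 at 51.6 and 32.8 CPM and Col27a1 at 74.7 and 36.0 CPM, all lower. Lower too were Col19a1 (20.6 and 12.2 CPM) and Col25a1 (6.51 and 2.98 CPM). Col2a1 was at 696 and 468 CPM, under the fold used for a call.

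Cluster 22, which met 4 of 8 chondrocyte markers beside all endothelial ones, held much of this signal: its Col2a1 was at 2682 and 3661 CPM and its Col10a1 at 421 and 92.6 CPM. Outside it Col2a1 still differed, at 584 and 23.6 CPM in cluster 2 and 195 and 26.0 CPM in cluster 28. The wild-type values there were over background and the Kif13b-/- values under it. Summed chondrocyte markers in endothelial-like cells were at 1428 and 1158 CPM, none of the 8 at 0, and their part in these values was not tested.

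**Figure D4:**
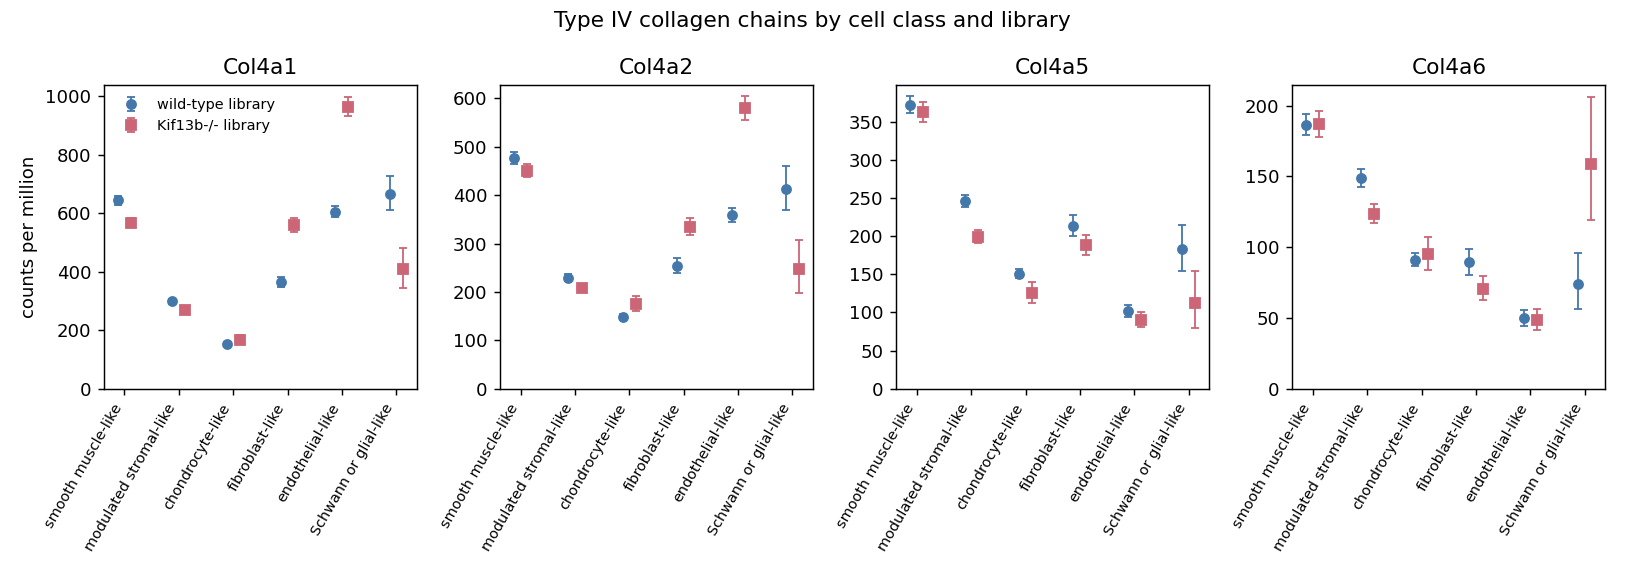
Levels of 4 type IV chains in CPM (vertical axes start at 0) in the 6 classes, with blue circles for the wild-type and red squares for the Kif13b-/- library and exact Poisson intervals. Col4a1 and Col4a2 are higher in the Kif13b-/- library in endothelial-like cells (606 and 965 CPM for Col4a1) and lower in Schwann or glial-like cells (667 and 409 CPM), while Col4a5 is highest in smooth muscle-like cells.

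Smooth muscle-like cells carried the most Col4a5, Col4a6 and Col19a1, and few of their collagens differed between the libraries. Of 26 measured collagens none was higher, against 3.36% of all 11876 measured genes, and 2 were lower, against 2.48%. The median log2 ratio was -0.02, against 0.00 for all genes. Basement membrane collagens summed to 1713 CPM for wild-type and 1608 CPM for Kif13b-/- cells, and fibrillar collagens to 3730.2 and 3706 CPM.

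Col4a1 was at 644 and 568 CPM and Col4a2 at 476 and 451 CPM. Col4a5 (chromosome X, 141475385 to 141689234, plus strand) was at 372 and 362 CPM. Its neighbour Col4a6, which runs away from it on the other strand, was at 186 and 187 CPM. Col18a1 was at 673 and 734 CPM. These values lay between 3.24 and 6.29 times background, so the basement membrane chains of smooth muscle-like cells stood over it, while Col1a2 (755 and 778 CPM) and Col3a1 (1854 and 1723 CPM) lay at 1.24 to 1.36 times.

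Col19a1 (chromosome 1, 24261890 to 24587472, minus strand), a collagen of basement membrane zones, was at 129 and 103 CPM, and its level in smooth muscle-like cells was 9.24 and 22.5 times background. It came mainly from cluster 30, at 227 and 212 CPM, against 51.1 and 59.5 CPM in cluster 25. The class value was lower in the Kif13b-/- library although neither cluster differed by much, and cluster 30 gave 44.2% of the wild-type and 28.7% of the Kif13b-/- UMIs. The 2 lower collagens were Col2a1 (17.4 and 4.61 CPM, under background in both libraries) and Col13a1 (4.20 and 1.69 CPM, from 54 and 15 UMIs).

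Modulated stromal-like cells carried high levels of interstitial collagens, and few collagens of these cells were called. Of 32 measured collagens 1 was higher, against 2.66% of all 12703 measured genes, and 3 were lower, against 3.13%. The median log2 ratio was -0.01, and that of all genes lay within 0.01 of 0. Col3a1 was at 7021 and 6606 CPM, Col1a1 at 2419 and 3053 CPM and Col1a2 at 2296 and 2629 CPM.

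Col5a2 was at 1148 and 1198 CPM. The type VI chains, which anchor cells to the fibrils, were at 589 and 648 CPM for Col6a1, 365 and 361 CPM for Col6a2, and 779 and 865 CPM for Col6a3. None of these was called, and all were at least 3.19 times background. The 3 lower genes were cartilage collagens: Col2a1 at 160.4 and 49.4 CPM, Col11a1 at 6.92 and 0.80 CPM and Col10a1 at 9.60 and 0.80 CPM. Of these wild-type UMIs, 59.6%, 50.5% and 74.3% came from 5 barcodes each. Col2a1 was at 1.54 and 0.85 times background. Col6a6 was the 1 higher gene, at 2.19 and 3.47 CPM, with an interval that included no difference.

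Schwann or glial-like cells carried the highest levels of Col16a1, Col20a1 and Col28a1, and many of their collagens were lower in the Kif13b-/- library. Of 24 measured collagens 11 were lower, where 14.5% of all 4193 measured genes were lower, and 2 were higher, against 7.75%. The median log2 ratio was -0.43, against -0.08 for all genes. The class was the smallest, with 794169 wild-type and 346800 Kif13b-/- UMIs.

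Col28a1 (chromosome 6, 7997808 to 8192617, minus strand), a collagen of peripheral nerve, was measured in no other of the 6 classes. It was at 135 CPM for wild-type and 75.0 CPM for Kif13b-/- cells, a log2 ratio of -0.82 (-1.52 to -0.22), from 107 and 26 UMIs. A UMI was found in 17.7% of wild-type and 22.9% of Kif13b-/- barcodes, and, thinned, in 9.58% and 4.48%. The unthinned share goes against the CPM, so no order is read from it. Unthinned T and B cell-like barcodes gave 0.66% and, in the Kif13b-/- library, 0 of 260, which allows up to 1.15%.

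Col20a1 was at 149 and 144 CPM and Col16a1, which sits on small fibrils, at 246 and 245 CPM, nearly equal in both libraries. Col5a3 was at 166 CPM in the wild-type library and at 92.3 CPM in the Kif13b-/- one. The basement membrane of a Schwann cell holds type IV collagen, and Col4a1 was at 667 and 409 CPM, Col4a2 at 413 and 248 CPM and Col4a5 at 183 and 112 CPM. The ratio of Col4a1 to Col4a2 UMIs was 1.62 and 1.65. Col4a6 was higher, at 74.3 and 159 CPM, and 72.7% of its 55 Kif13b-/- UMIs came from 5 barcodes.

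Col6a1 was at 405 and 202 CPM, Col6a2 at 160 and 86.5 CPM, Col15a1 at 253 and 147 CPM and Col27a1 at 201 and 75.0 CPM, all lower. Col6a3 was not called, at 302 and 279.7 CPM. Col1a1 (2123 and 1609 CPM), Col1a2 (1695 and 1240 CPM), Col3a1 (2967 and 2220 CPM), Col5a2 (898 and 709 CPM) and Col18a1 (587 and 551 CPM) were not called either. Col14a1 was higher, at 170.0 and 303 CPM.

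Col2a1 was at 529 CPM in wild-type and 11.5 CPM in Kif13b-/- glial-like cells, a log2 ratio of -5.35 (-7.40 to -4.15), from 420 and 4 UMIs. That was 5.09 and 0.20 times background. Col11a1 was at 73.0 and 14.4 CPM. The summed chondrocyte markers in these cells were at 636 CPM for wild-type and 208 CPM for Kif13b-/- cells, where 1 of the 8 was at 0, and their part in the Col2a1 value was not tested. The summed glial markers were at 1949 and 1225 CPM, and the summed fibroblast markers at 2507 and 4121 CPM. The 8 smooth muscle markers summed to more, 5703 and 6554 CPM, against 3952 and 2860 CPM in T and B cell-like barcodes. Modulated stromal markers summed to 1253 and 1116 CPM, pericyte markers to 1085 and 1808 CPM and macrophage markers to 269 and 865 CPM. The part of all these markers in the collagen values was not tested. The 8 endothelial markers summed to 456 and 127 CPM, and 4 of them were at 0 in the Kif13b-/- library, Vwf and Emcn among them. Their part in the lower Col4a1, Col4a2 and Col15a1 was not tested.

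**Figure D5:**
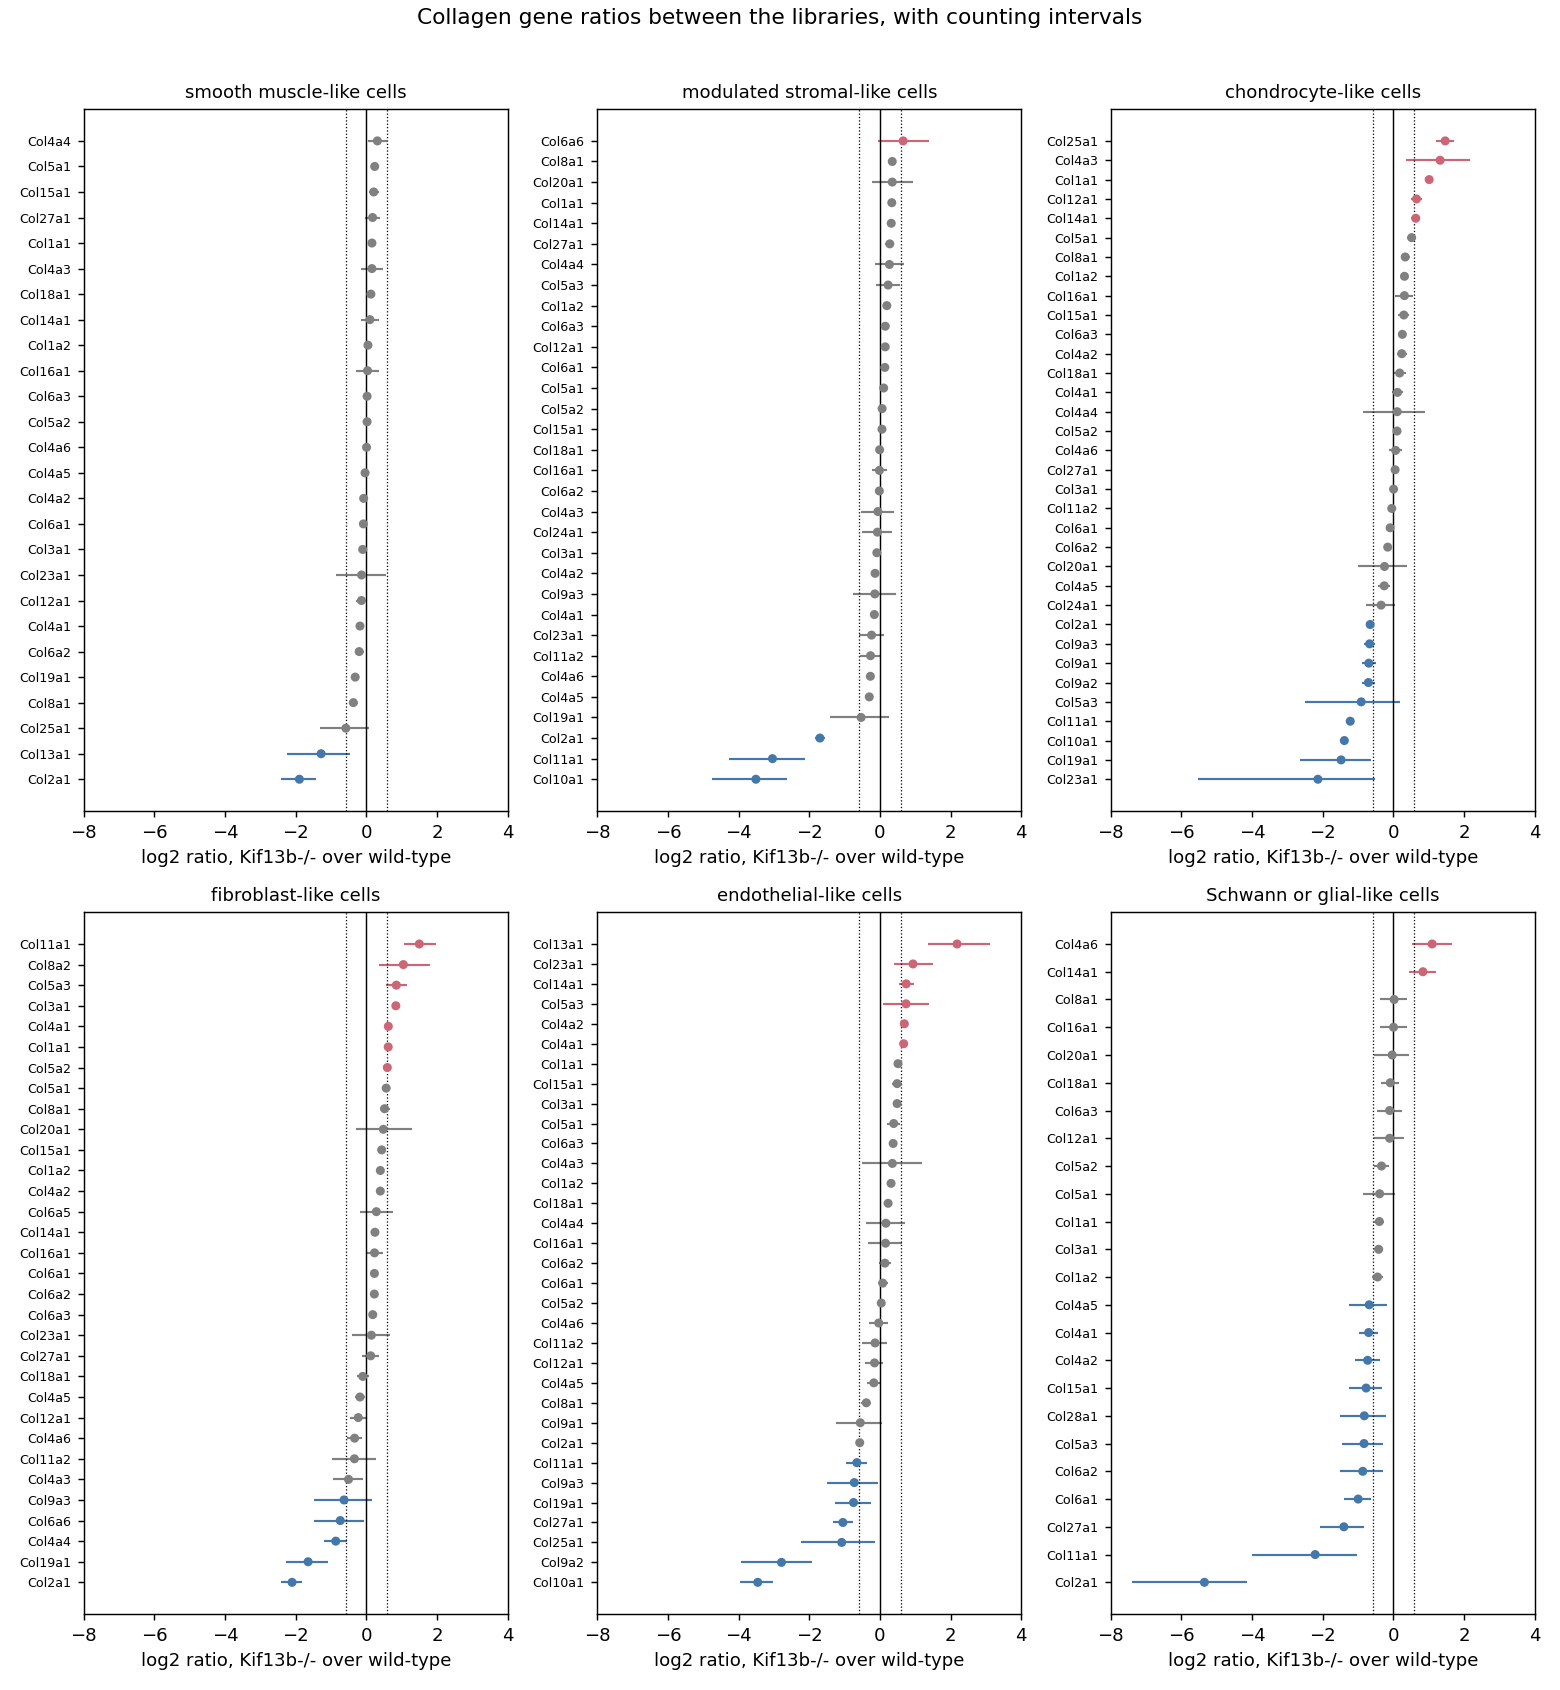
Log2 ratio of Kif13b-/- to wild-type CPM for each measured collagen in each class, with exact intervals, where red is higher and blue lower by the 1.5-fold rule marked by dotted lines. Most collagens lie within the lines in smooth muscle-like and modulated stromal-like cells, where 2 and 4 were called, and 11 of 24 lie to the left in Schwann or glial-like cells.

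Across classes, most calls of cartilage collagens were lower in the Kif13b-/- library. Col2a1 was lower in 5 of 6 classes and Col10a1 in all 3 in which it was measured. Of those 5 classes, only chondrocyte-like cells had Col2a1 over background in both libraries. In Kif13b-/- modulated stromal-like cells Col10a1 was under background too. Col11a1 was lower in 4 of 5 and higher in fibroblast-like cells, Col9a3 was lower in 3 of 4, Col9a2 in both and Col9a1 in 1 of 2. Col11a2 was measured in 4 classes and called in none. With thinned barcodes Col9a2 and Col9a3 in chondrocyte-like cells turned to 0.0090 and 0.15. Over all analysed barcodes 11 collagens were lower and 1 higher, against 5.98% and 3.3% of 17672 genes. The shares of chondrocyte-like and of unnamed barcodes also enter there. There Col2a1 was at 1759.8 and 376 CPM and Col10a1 at 159 and 16.2 CPM. In T and B cell-like barcodes Col2a1 was at 104 and 58.1 CPM and Col10a1 at 8.10 and 1.15 CPM, so the level outside collagen-making cells was also lower in the Kif13b-/- library.

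Of the interstitial chains Col1a1, Col1a2, Col3a1, Col5a1 and Col5a2, none was lower in any of the 6 classes. Col1a1 was higher in 2 classes and Col3a1 and Col5a2 in 1 each, and Col1a2 and Col5a1 were called in none. Col14a1 was higher in 3 of 6. Col19a1 was lower in 3 of 5 classes. Col6a3, Col8a1, Col16a1 and Col18a1 were measured in all 6 classes and called in none.

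The genes that modify, export, cut and cross-link collagen were followed as a list of 48. Serpinh1, the collagen-specific chaperone HSP47, was not called in any class, and was at 947 and 1002 CPM in chondrocyte-like cells. Lox, the lysyl oxidase that starts cross-linking, was lower in chondrocyte-like cells (330 and 199 CPM) and in Schwann or glial-like cells (97.0 and 40.4 CPM). Lox was not called in smooth muscle-like (170.4 and 142 CPM), modulated stromal-like (326 and 246 CPM), fibroblast-like (189 and 232 CPM) and endothelial-like cells (157 and 115 CPM).

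In chondrocyte-like cells 3 of 45 measured list genes were higher and 5 lower, beside 5.81% and 7.8% of all genes. All 3 higher ones belonged to propeptide cleavage, among them Pcolce, an enhancer of the C-proteinase (99.5 and 170 CPM), and Adamts2, the N-proteinase (28.3 and 43.8 CPM). Of 5 cross-linking genes 3 were lower, and so was P3h2, a prolyl 3-hydroxylase (106 and 64.5 CPM). In fibroblast-like cells 6 of 42 were higher and 2 lower, beside 4.87% and 5.73% of all genes, with Loxl1 at 237 and 357 CPM, Adamts2 at 213 and 349 CPM and Bmp1, the C-proteinase, at 147 and 230.1 CPM. Pcolce2 was lower there, at 252 and 149 CPM.

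In endothelial-like cells 6 of 41 were higher and 3 lower, beside 4.62% and 5.05% of all genes, with Pcolce at 47.7 and 90.7 CPM, Bmp1 at 38.2 and 63.3 CPM, Tll1 at 151 and 73.6 CPM and Pcolce2 at 103 and 34.9 CPM. In Schwann or glial-like cells 7 of 29 were higher and 2 lower, beside 7.75% and 14.5% of all genes, with Ddr2, a collagen receptor, at 106 and 159 CPM and Pcolce at 75.6 and 159 CPM. In modulated stromal-like cells 2 of 43 were higher and none lower, beside 2.66% and 3.13% of all genes, Pcolce at 138 and 211 CPM and Tll1 at 2.06 and 9.34 CPM. In smooth muscle-like cells 1 of 41 was higher, beside 3.36% of all genes, the integrin chain Itga11 at 2.33 and 4.61 CPM.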

How the data were processed

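Single-cell droplet libraries of mouse aorta were used, 1 wild-type and 1 titled Kif13b-/-. The authors deposited raw UMI counts per gene and barcode, made with Cell Ranger 8.0.1 per the file headers, on mm10 per the submitters' processing notes. The annotation release was not given in the sources used here. The deposited counts came to 93136569 UMIs over 21126 wild-type barcodes and 64455003 UMIs over 7766 Kif13b-/- barcodes.

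Barcodes needed at least 500 UMIs, 300 genes and at most 20% mitochondrial UMIs. The automatic doublet threshold of Scrublet marked 4 and 0 barcodes and was not used. Instead the highest doublet scores were removed at 0.8% per 1000 barcodes, which took out 3146 (15.9%) and 428 (5.85%). Clustering used scanpy 1.11.5 with 2000 variable genes less 17 collagens, 30 components, 15 neighbours and Leiden resolution 1. A cluster took a class name where at least 3 and 50% of a class's markers were raised 2-fold and found in 10% of its barcodes. It also needed at least 30 barcodes and a mean log2 fold of the markers at least 1 over any second class that passed. This rule was set after the clusters were seen. Of 16686 and 6887 barcodes, 2809 and 2283 stayed unnamed. Cluster 36, unnamed and with mitochondrial genes among its top genes, held 5 wild-type and 1285 Kif13b-/- barcodes. Unnamed barcodes gave 9.56% of wild-type and 21.6% of Kif13b-/- collagen UMIs. Their median mitochondrial share was 6.15% and 13.9%. They count in the class percentages and in the values over all analysed barcodes.

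UMIs were summed per class and library and given as CPM. A prior count of 0.5 entered each log2 ratio. Bounds are 95% exact Poisson, exact conditional or Clopper-Pearson intervals. The calculation was tested on simulated class sums that varied by counting error only, so the test does not cover spread between barcodes or mice. Named in each class are the 6 collagens with the most UMIs and up to 6 with the largest ratio past 1.5 in each direction, and of the list of 48 collagen-processing genes up to 4 per class, with Serpinh1 and Lox always. Other collagens named were chosen after their values were seen. The members and lists were chosen with earlier results of these data known. Alternatives covered scaling, filters, depth, barcode weights, background, clustering, doublets and class naming.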

Additional observations from a re-analysis of the deposited data

Results flagged for a closer look

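For 7 collagens the log2 ratio of Kif13b-/- to wild-type CPM passed the fold in opposite directions in different classes with both counting intervals excluding 0, in 12 pairs of classes. Col6a6 also passed it both ways, but its interval in modulated stromal-like cells included 0. Without the interval condition these were 8 of 39 measured collagens, beside 2.88% of all 13830 genes measured in at least 1 class. The share of all genes with that condition was not computed. With 1 library per genotype none of these differences was tested. Col11a1 was higher in fibroblast-like cells and lower elsewhere, and its log2 ratios differed by 4.54 from modulated stromal-like, 2.72 from chondrocyte-like, 2.15 from endothelial-like and 3.71 from Schwann or glial-like cells.

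The type IV chains were higher in endothelial-like and lower in Schwann or glial-like cells, a difference in log2 ratio of 1.37 for Col4a1 and 1.42 for Col4a2. Col4a1 in fibroblast-like cells differed from Schwann or glial-like cells by 1.32. Col5a3 in Schwann or glial-like cells differed by 1.68 from fibroblast-like and by 1.57 from endothelial-like cells.

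Among the transmembrane collagens, Col13a1 differed by 3.47 between endothelial-like and smooth muscle-like cells. Col23a1 differed by 3.07 between endothelial-like and chondrocyte-like cells, and Col25a1 by 2.55 between chondrocyte-like and endothelial-like cells. Col13a1 rested on few UMIs, and 90.5% of the 199 Kif13b-/- UMIs of Col25a1 in chondrocyte-like cells came from 5 barcodes.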

How the results depend on the processing

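Of 201 recomputed class counts and medians, 133 stayed close to the reported value and 68 moved. Of 895 recomputed gene ratios, 567 stayed close, 314 moved and 14 reversed; the cause was not tested. No paired analysis was possible because each genotype had 1 library. The counts of higher and lower genes below are of collagens only. The share of all genes called was not recomputed under these alternatives, so no excess of collagens is read from them.

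With any gene of at least 1 UMI counted, higher and lower genes were 2 and 10 in smooth muscle-like, 4 and 6 in modulated stromal-like and 8 and 14 in chondrocyte-like cells. Fibroblast-like cells then had 11 lower genes, endothelial-like cells 12, and higher and lower ones 6 and 18 in Schwann or glial-like cells.

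Thinning barcodes to 1000 UMIs, which leaves fewer measured genes, left 1 lower gene and a median of 0.074 in smooth muscle-like and 0 higher in modulated stromal-like cells. Chondrocyte-like cells then had 1 higher, 1 lower and a median of -0.12, fibroblast-like 0 higher and 2 lower, endothelial-like 0 higher and 4 lower, and Schwann or glial-like cells 1 higher, 4 lower and a median of -0.25. In chondrocyte-like cells thinning reversed Col9a2 (0.0090), Col9a3 (0.15), Col12a1 (-0.39) and Col14a1 (-0.12).

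With every barcode weighing the same, higher genes were 2 in chondrocyte-like (median -0.15), 3 in endothelial-like, 1 in fibroblast-like and, at a median of -0.22, 1 in Schwann or glial-like cells. Col12a1 (-0.20) and Col25a1 (-0.22) in chondrocyte-like and Col5a3 (-0.55) in endothelial-like cells reversed. Among barcodes of at least 5000 UMIs, fibroblast-like cells had 4 higher and 1 lower, endothelial-like 3 lower with Col19a1 at 0.35, and Schwann or glial-like 1 higher with a median of -0.75.

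With the T and B cell-like level subtracted, smooth muscle-like cells had 5 higher and 1 lower, modulated stromal-like 4 higher (median 0.18), chondrocyte-like 9 higher (0.19), fibroblast-like 11 higher (0.48), and endothelial-like 10 higher and 2 lower (0.49, with Col19a1 at 0.20). The Schwann or glial-like median was -0.61.

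With clusters weighted as in the wild-type library, an alternative chosen after seeing the data, fibroblast-like cells had 2 higher and endothelial-like 4 lower, with Col11a1 at 0.054 in the latter. With collagens kept for clustering, 5 were lower in modulated stromal-like, 4 higher in fibroblast-like and 1 higher in Schwann or glial-like cells. At resolution 2, modulated stromal-like cells had 0 higher and 5 lower, and chondrocyte-like 1 higher, 5 lower and a median of -0.12.

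Without doublet removal, 1 was lower in smooth muscle-like, 7 in modulated stromal-like, 4 in chondrocyte-like and 9 in fibroblast-like cells, with 3 higher in each of the last 2 classes and fibroblast-like Col11a1 at -0.28. With classes by marker score, smooth muscle-like cells had 6 lower, modulated stromal-like 0 higher and 5 lower, chondrocyte-like 3 higher, fibroblast-like 3 higher and Schwann or glial-like 1 higher. Col11a1 (0.50) and Col9a3 (0.60) in endothelial-like and Col14a1 (-0.22) in Schwann or glial-like cells then reversed.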
